A study of Danio rerio with 6 samples.

Results

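The genes described here make or fold procollagen inside the cell: the collagen prolyl 4-hydroxylase subunits p4ha1a, p4ha1b, p4ha2 and p4hb, the lysyl hydroxylases plod1a, plod2 and plod3, the prolyl 3-hydroxylase p3h1, and the collagen chaperones serpinh1a and serpinh1b. They were found by symbol in the count table, with or without a numeric suffix, and all 10 symbols had at least 1 entry. p4ha1a, p4ha1b, p4hb and plod3 each had a second entry with the suffix _1, which gave 14 entries of the 53709 in the table. The genes were chosen by their place in collagen modification and with earlier log2 fold changes and adjusted p-values of these same libraries in view, above all those of p4ha1b, so the values below describe them and give no independent support.

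Messenger RNA was taken from regrowing tail fins of male zebrafish, from the blastema (the cap of dividing cells that rebuilds the fin) as it stood 4 days after the cut. In the ZnO group each fish was kept in 150 mL of water with 2 mg/L of Pro-ZnO, zinc oxide nanoparticles from a green synthesis that uses propolis extract (the resin that bees collect), and in the control group in the same volume of distilled water, with 3 libraries per group. Groups were of 5 fish in triplicate, per the labels, but strain, age and which fish went into which library are not stated, so a p-value sets a difference against the spread of these libraries, which may be technical. Neither group received propolis extract or dissolved zinc alone, and the parts of particle, zinc and extract cannot be told apart.

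Collagen chains are modified before they wind into a triple helix. Prolyl 4-hydroxylase, built of alpha subunits that carry the active site and beta subunits that are the protein disulfide isomerase P4HB, makes the hydroxyproline that keeps the helix stable. Lysyl hydroxylases make the hydroxylysine that carries sugars and takes part in cross-links, and P3H1 modifies single prolines in a complex with CRTAP and the peptidyl-prolyl isomerase PPIB. These hydroxylases need oxygen, iron, 2-oxoglutarate and ascorbate. SERPINH1, also called HSP47, binds the finished helix in the endoplasmic reticulum. In a regenerating fin, fibroblasts and bone-forming cells lay down the collagen of the new rays.

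Libraries held 26624174 to 31712994 counts, and 1 count stood for between 0.0316 and 0.0383 CPM (counts per 1000000 counts of a library after TMM scaling, the unit of every level below). The lowest count of any member in any library was 297, and all 14 entries passed the filter on low counts. Of the blastema and fibroblast mesenchyme markers, 21 of 21 entries passed that filter, with a summed level of 6741 to 9134 CPM in ZnO libraries and 8291 to 9128 CPM in control libraries. By edgeR 0 of them were called, and 3 were higher and 3 lower at an unadjusted p under 0.05, beside 15.9% of all entries in either direction. DESeq2 called 0 higher and 1 lower, beside 1.65% and 3.02% of all entries. Skeletal muscle markers were nearly lacking, at 17.0 to 24.2 CPM summed over 17 entries in ZnO libraries and 22.4 to 28.7 CPM in control libraries, with myl1 and tnni2a.4 at 0 counts in all libraries. Neutrophil markers summed to 229.7 to 345 CPM in ZnO libraries and 727 to 832 CPM in control libraries, with 0 of 19 entries positive. Called lower were 5 by edgeR (26.3%, beside 0.331% of all entries) and 12 by DESeq2 (beside 3.02% of all entries). The edgeR calls were csf3r, ncf4, mmp25b and both coro1a entries, which may share reads, and the other neutrophil entries missed that threshold. In whole tissue, fewer cells of a type and less RNA per cell cannot be told apart.

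Of the collagen hydroxylases and chaperones, the first p4ha1b entry rose 2.87-fold in ZnO libraries and narrowly passed the edgeR test (adjusted p = 0.0496). Its second entry (0.0644) and its entries summed (0.063) missed the threshold, and the call was lost in 11 of 15 alternatives. The other alpha subunit genes, the beta subunit gene, the lysyl hydroxylases, p3h1 and the chaperones did not pass the test. Over the 14 entries, log2 fold changes (ZnO over control) ran from -0.41 for plod2 to 1.57 for the second p4ha1b entry, with 7 positive, 7 negative and a median of -0.04. The median over all 25962 entries tested was 0.01. In the quasi-likelihood test of edgeR (Benjamini-Hochberg adjusted p over all entries, threshold 0.05), 1 of the 14 was higher and 0 were lower, beside 0.0963% higher and 0.331% lower of all entries. With DESeq2, 2 of the 14 were higher and 0 lower, beside 4.67% of all entries called (1.65% higher and 3.02% lower). At an unadjusted edgeR p under 0.05 there were 4 of the 14, p4ha1b with both entries, p4ha2 and plod2, beside 15.9% of all entries. Because the genes were picked with this contrast known, these shares are given without a reading.

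**Figure D1:**
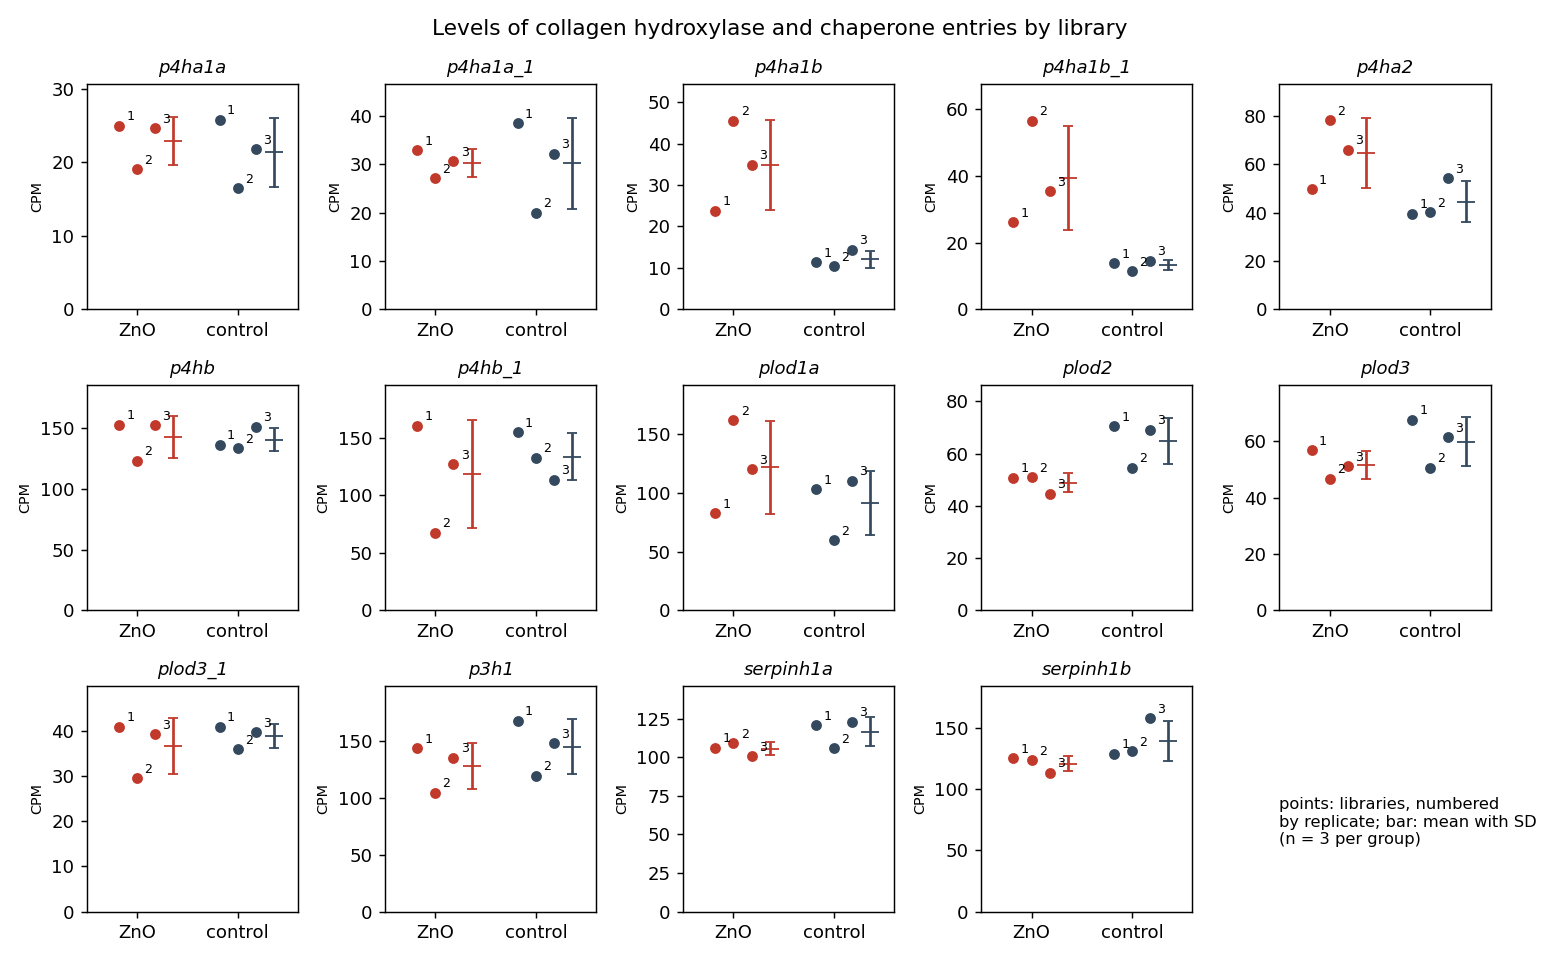
CPM of each of the 14 entries (vertical axes from 0), ZnO libraries in red left of control libraries in dark blue, with replicate numbers beside the points and the mean with SD (n = 3) beside each group. p4ha1b and p4ha1b_1 sit at 23.8 to 56.6 CPM in ZnO libraries, above 10.5 to 14.6 CPM in control libraries, while 10 entries overlap between the groups.

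p4ha1b encodes a catalytic alpha subunit of prolyl 4-hydroxylase. Its first entry stood at 23.8, 45.5 and 34.9 CPM in ZnO libraries 1, 2 and 3, against 11.4, 10.5 and 14.4 CPM in control libraries 1, 2 and 3. All ZnO libraries were above all controls, and ZnO 1 was the lowest and ZnO 2 the highest of the ZnO group. The mean was 34.7 ± 10.9 CPM in ZnO and 12.1 ± 2.05 CPM in controls (SD, n = 3 each), a log2 fold change of 1.52 ± 0.24 (SE) with an edgeR adjusted p = 0.0496, just inside the threshold. The second entry, p4ha1b_1, stood at 26.2, 56.6 and 35.5 CPM in ZnO libraries, against 13.9, 11.4 and 14.6 CPM in controls. It showed the same order of libraries within the ZnO group and a difference of 1.57 ± 0.27 on the log2 scale that missed the threshold (edgeR adjusted p = 0.0644). What the suffix stands for is not stated, and such entries may share reads, so the entries are not separate evidence. Summed, the gene stood at 49.99, 102 and 70.3 CPM in ZnO libraries and 25.3, 21.9 and 29.0 CPM in controls, where its log2 fold change was 1.54 ± 0.26 (edgeR adjusted p = 0.063).

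Over 15 alternatives the log2 fold change of p4ha1b ran from 1.26 (without ZnO 2, edgeR adjusted p = 0.0951) to 1.72 (without ZnO 1, 0.0168). The call was lost in 11 of them: without ZnO 2, ZnO 3 (0.172), control 1 (0.14), control 2 (0.156) or control 3 (0.0992), with the replicate number as a block (0.0858), and in 5 changes of tool, scaling, filter or entries, at 0.0502 with upper quartile scaling to 0.0668 with limma-voom. DESeq2 gave the entries adjusted p-values of 7.29e-07 and 2.64e-06.

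p4ha1a, the other zebrafish copy of the same alpha subunit, stayed within the spread of the libraries. Its first entry stood at 25.0, 19.1 and 24.6 CPM in ZnO libraries and 25.8, 16.5 and 21.8 CPM in controls. Its second entry stood at 32.9, 27.1 and 30.6 CPM in ZnO libraries and 38.4, 19.9 and 32.2 CPM in controls. In both entries replicate 2 was the lowest library of each group and the groups overlapped. Log2 fold changes were 0.10 ± 0.18 for p4ha1a and 0.00 ± 0.22 for p4ha1a_1 (edgeR adjusted p = 0.842 and 0.999), and the sign turned without control 2 at both entries.

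p4ha2, a second type of alpha subunit, lay between these patterns. It stood at 49.5, 78.2 and 66.0 CPM in ZnO libraries and at 39.4, 40.1 and 54.1 CPM in controls. ZnO 2 and ZnO 3 were above every control, while ZnO 1 was below control 3, so the groups overlapped. The difference of 0.54 ± 0.19 on the log2 scale missed the threshold (edgeR adjusted p = 0.237) and was positive in all 15 alternatives (0.36 to 0.69). p4ha3, a further alpha subunit gene that is no member, was near the floor at 1 to 18 counts in ZnO libraries and 8 to 23 counts in controls.

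p4ha1b took a larger share of the alpha subunit reads in every ZnO library than in any control. Within a library this share needs no scaling between libraries, but it is a share of counts and not of molecules, since transcript lengths were not used. Entries with a shared symbol were summed, while p4ha2 has no second entry. Reads shared between entries would therefore alter this share and the shares, sums and ratios below. p4ha1b, both entries summed, carried 31.8%, 45.1% and 36.7% of alpha subunit counts in ZnO libraries 1, 2 and 3, against 19.6%, 22.3% and 21.1% in controls. The mean was 37.9% ± 6.74 in ZnO and 21.0% ± 1.33 in controls (SD, n = 3 each), a difference of 16.9 percentage points. p4ha1a averaged 28.7% ± 8.19 in ZnO and 42.1% ± 6.80 in controls, and p4ha2 33.5% ± 1.74 in ZnO and 36.9% ± 5.53 in controls. The shares of a library add up, so the larger share of p4ha1b leaves a smaller one for p4ha1a and p4ha2 together. How that rest splits also depends on p4ha2, whose mean was 64.6 CPM in ZnO and 44.5 CPM in controls. Summed over the alpha subunit genes, the level was 157, 227 and 192 CPM in ZnO libraries and 129, 98.4 and 137 CPM in controls, without overlap. That sum includes p4ha1b, while p4ha1a and p4ha2 each overlapped between the groups.

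**Figure D2:**
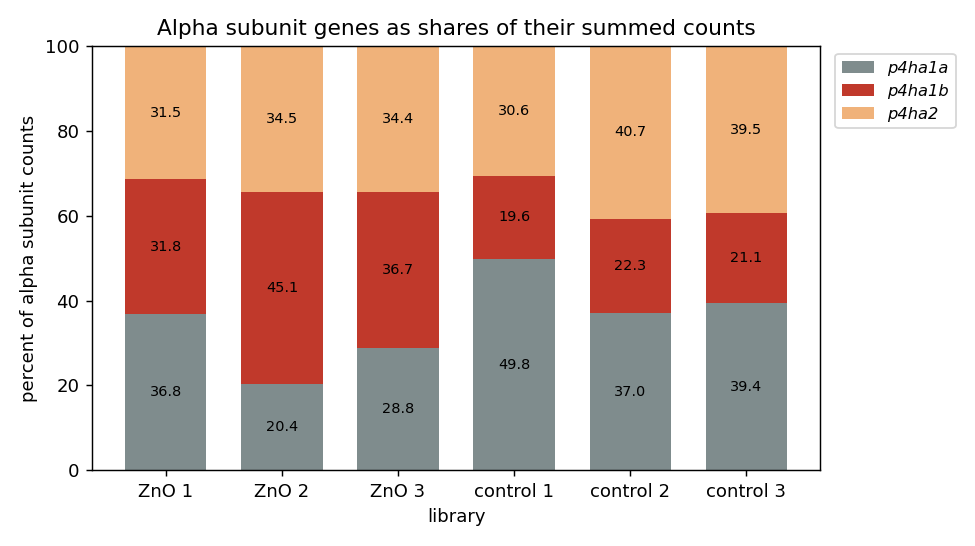
Percent of alpha subunit counts (vertical axis) from p4ha1a (grey), p4ha1b (red) and p4ha2 (orange) in each library (horizontal axis), entries of a gene summed. The red segment is 31.8% to 45.1% in ZnO libraries and 19.6% to 22.3% in control libraries.

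The beta subunit gene p4hb did not pass the test at either entry. Its first entry stood at 152, 123 and 152 CPM in ZnO libraries and 136, 133 and 151 CPM in controls, and the groups overlapped and differed by 0.02 ± 0.13 on the log2 scale (edgeR adjusted p = 0.949). The second entry, p4hb_1, stood at 161, 67.7 and 127 CPM in ZnO libraries and 155, 133 and 114 CPM in controls. Here ZnO 2, the library with the highest p4ha1b, was the lowest of all 6, and the log2 fold change of -0.17 ± 0.30 (edgeR adjusted p = 0.827) became 0.09 without it. p4hb_1 held 35.5% of the p4hb counts in ZnO 2, 45.6% and 51.4% in the other ZnO libraries, and 43.0% to 53.2% in controls. The ratio of summed alpha to summed p4hb CPM was 0.503, 1.19 and 0.687 in ZnO libraries and 0.443, 0.370 and 0.518 in controls, and ZnO 1 was below control 3. Without p4ha1b the ratio was 0.343, 0.653 and 0.435 in ZnO libraries and 0.356, 0.288 and 0.409 in controls, with overlap.

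The lysyl hydroxylase genes went different ways, and none passed. plod1a, whose product hydroxylates lysines of the collagen helix, stood at 82.7, 162 and 120 CPM in ZnO libraries and 103, 59.9 and 110 CPM in controls. It was highest in ZnO 2 and lowest in control 2, and its log2 fold change of 0.42 ± 0.30 (edgeR adjusted p = 0.554) was 0.14 without ZnO 2 and 0.19 without control 2. plod2, whose human counterpart hydroxylates the ends of the chains outside the helix, stood at 50.9, 51.0 and 44.7 CPM in ZnO libraries and 70.6, 54.7 and 69.2 CPM in controls. All ZnO libraries were below all controls, with control 2 close above them, and the log2 fold change was -0.41 ± 0.13 (edgeR adjusted p = 0.194), negative in all 15 alternatives (-0.52 to -0.34). plod3, whose product also adds sugars to hydroxylysine, stood at 56.7, 46.7 and 51.0 CPM in ZnO libraries and 67.5, 50.5 and 61.4 CPM in controls, and plod3_1 at 41.0, 29.6 and 39.3 CPM in ZnO libraries and 40.9, 35.9 and 39.7 CPM in controls. Both plod3 entries overlapped between groups (log2 fold changes -0.22 ± 0.14 and -0.09 ± 0.14; edgeR adjusted p = 0.491 and 0.824).

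Summed over the lysyl hydroxylase genes, ZnO libraries stood at 231, 289 and 255 CPM and controls at 282, 201 and 281 CPM. The makeup of that sum differed more than its size. plod2 carried 22.01%, 17.7% and 17.5% of lysyl hydroxylase counts in ZnO libraries and 25.0%, 27.2% and 24.7% in controls, without overlap. plod1a carried 35.8%, 55.9% and 47.1% in ZnO libraries and 36.5%, 29.8% and 39.3% in controls, and ZnO 1 lay within the control range.

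p3h1 and the chaperones were slightly lower on average and did not pass. p3h1 stood at 143, 104 and 135 CPM in ZnO libraries and 167, 119 and 148 CPM in controls, and its groups overlapped (-0.18 ± 0.17 on the log2 scale, edgeR adjusted p = 0.653). serpinh1a stood at 106, 109 and 101 CPM in ZnO libraries and 121, 106 and 123 CPM in controls, where control 2 fell among the ZnO libraries (-0.14 ± 0.11, adjusted p = 0.573). serpinh1b, the zebrafish hsp47 gene, stood at 125, 124 and 113 CPM in ZnO libraries and 129, 131 and 158 CPM in controls. All its ZnO libraries were below all controls, the nearest by only a few CPM, and the difference was -0.21 ± 0.12 on the log2 scale (edgeR adjusted p = 0.453). Both chaperones kept their proportion: serpinh1a carried 46.6% ± 0.620 of their counts in ZnO and 45.6% ± 2.40 in controls (SD, n = 3 each). Groups did not overlap at 2 of the 14 entries that were higher in ZnO (both p4ha1b entries) and 2 that were lower (plod2 and serpinh1b), beside 11.3% and 11.2% of all entries. The 13 entries that missed the threshold had an SE of 0.11 to 0.30, and missing it does not show equal levels. Not only small differences went uncalled with these libraries, since p4ha1b_1 missed the threshold at 1.57 on the log2 scale.

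**Figure D3:**
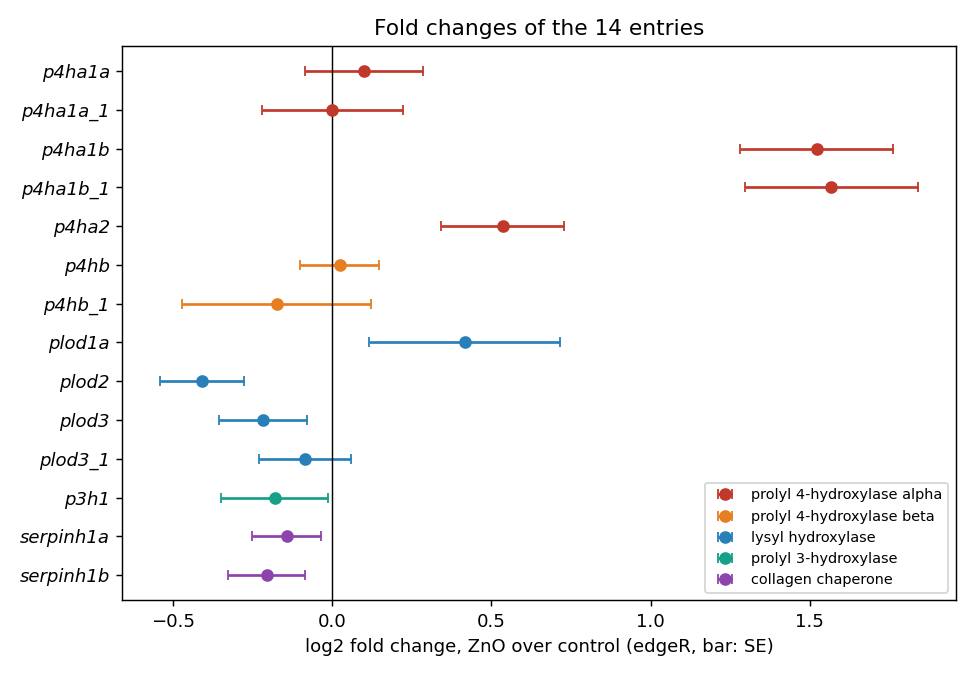
Log2 fold change, ZnO over control (horizontal axis), of the 14 entries (vertical axis, ordered by role), with points coloured by role and bars for SE. The p4ha1b entries lie at 1.52 and 1.57, p4ha2 at 0.54, and both chaperones, p3h1, p4hb_1, plod2 and both plod3 entries below 0.

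The members fell into different library profiles, taken as log2 CPM minus an entry's own mean over the 6 libraries. The closest pair was plod3 and p3h1, with a root mean square difference of 0.08, followed by serpinh1a and serpinh1b at 0.09. The entries of p4ha1b differed from each other by 0.11 and those of p4ha1a by 0.12. The widest gap, 1.13, lay between p4ha1b_1 and p4hb_1, and p4ha1b lay 0.99 from plod2. Among 10390 named entries with a mean of at least 10 CPM, the 5 profiles nearest to p4ha1b were its own second entry (0.11), mmp11a_1 (0.16), ucmaa (0.18), mmp15b (0.20) and mmp11a (0.20). mmp11a encodes a stromelysin-type metalloproteinase, ucmaa a Gla-rich protein of the cartilage matrix and mmp15b a membrane-bound metalloproteinase. ucmaa stood at 24.1, 55.1 and 47.6 CPM in ZnO libraries and 10.9, 10.9 and 14.0 CPM in controls (log2 fold change 1.82 ± 0.30, edgeR adjusted p = 0.0625). mmp11a stood at 56.2, 114 and 104 CPM in ZnO libraries and 32.2, 36.2 and 48.1 CPM in controls (1.23 ± 0.28, adjusted p = 0.108). mmp15b rose to 60.0, 98.1 and 103 CPM in ZnO libraries, against 36.5, 26.6 and 33.1 CPM in controls (1.44 ± 0.22, adjusted p = 0.0467). It missed the threshold without any 1 library other than ZnO 1 (0.1003 to 0.157), and in 9 of the 15 alternatives in all. These profiles share the libraries and the group difference that chose p4ha1b, so the likeness is a description.

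**Figure D4:**
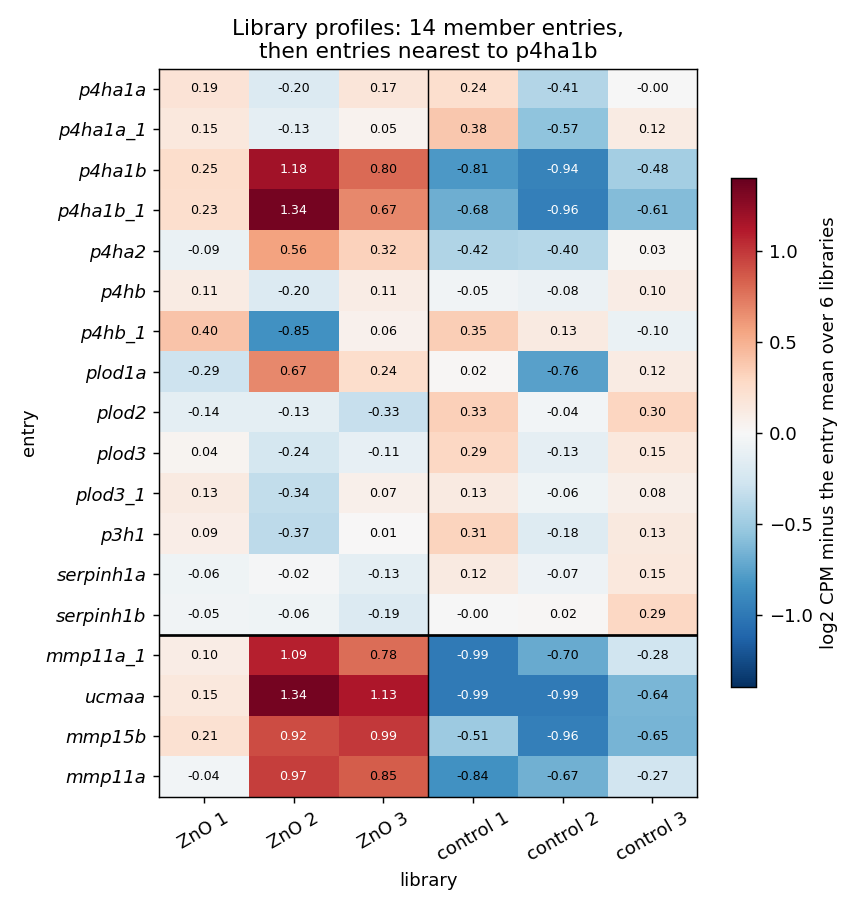
Log2 CPM minus the entry's mean over the 6 libraries (colour and printed values) for the 14 member entries and, under the black line, the entries nearest to p4ha1b, with ZnO libraries left of control libraries. p4ha1b, p4ha1b_1 and the lower block share their highest values in ZnO 2 and ZnO 3, and p4hb_1 is lowest in ZnO 2 at -0.85.

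Marker levels of some other cell types differed between the same libraries. In macrophage markers (1 of 15 tested entries positive, median log2 fold change -0.43), the sum was 2075 to 2781 CPM in ZnO libraries and 2815 to 3679 CPM in controls. That sum consists mostly of cd74a and cd74b. Only at cd74a, cd74b and spi1b were all ZnO libraries below all controls, beside 11.2% of all entries. The groups overlapped at the other macrophage entries. Erythrocyte markers (14 of 15 tested entries positive, median log2 fold change 1.47) summed to 166, 409.8 and 364 CPM in ZnO libraries and 126, 45.9 and 165 CPM in controls, in the same order of libraries as p4ha1b within each group. Melanophore markers (9 of 10 positive, median 0.80) summed to 71.8, 160.1 and 118 CPM in ZnO libraries and 71.0, 52.2 and 65.5 CPM in controls. Osteoblast markers (13 of 15 positive, median 0.23), a sum that consists mostly of col10a1a and col10a1b, ran from 10522.5 to 14195 CPM in ZnO libraries and from 9008 to 12817 CPM in controls. All ZnO libraries were above all controls at bglap (log2 fold change 1.75), entpd5a (0.68), spp1 (0.51), alpl (0.51) and runx2a (0.33), beside 11.3% of all entries. The groups overlapped at the other osteoblast entries. Endothelial markers, with plvapb and plvapb_1 as the highest entries, ran from 268 to 310.1 CPM in ZnO libraries and from 228 to 255 CPM in controls. No entry of these 5 lists passed the edgeR threshold. DESeq2 called 5 erythrocyte, 3 melanophore and 2 osteoblast entries higher and none of the endothelial or macrophage entries, beside 1.65% higher and 3.02% lower of all entries. At an unadjusted edgeR p under 0.05 there were 7 erythrocyte, 7 melanophore, 5 osteoblast and 4 of 16 endothelial entries higher. Of the macrophage entries 1 was higher and 3 were lower. The share of all entries under that p was 15.9% in either direction. Keratinocyte markers (8 of 21 tested entries positive, median -0.13), mostly krt5_1 and krt91 by level, summed to 62954 to 78896 CPM in ZnO libraries and 49225 to 66387 CPM in controls, with overlap. By edgeR 0 of them were called, with 2 higher and 1 lower at an unadjusted p under 0.05. DESeq2 called 0 higher and 1 lower. The part of any of these cell types, or of neutrophils, in the p4ha1b difference was not tested.

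The rest of the collagen folding machinery of the endoplasmic reticulum held no entry past the edgeR threshold. Of 29 tested entries 0 passed in either direction by edgeR, and 5 were lower and 0 higher at an unadjusted p under 0.05, beside 15.9% of all entries in either direction. DESeq2 called 1, p3h2, lower, beside 3.02% of all entries, and the median log2 fold change was -0.17. crtap, which encodes the partner of P3H1, stood at 74.3, 79.6 and 76.0 CPM in ZnO libraries and 95.8, 67.4 and 80.0 CPM in controls (-0.08 ± 0.14, edgeR adjusted p = 0.828). ppib, which encodes the third member of that complex, stood at 546, 599 and 529 CPM in ZnO libraries and 601, 501 and 590.1 CPM in controls (-0.02 ± 0.13, adjusted p = 0.967). Groups overlapped at both. Of the other prolyl 3-hydroxylase family genes, p3h2 stood at 3.88, 4.48 and 4.65 CPM in ZnO libraries and 10.6, 6.48 and 7.43 CPM in controls (-0.91 ± 0.22, edgeR adjusted p = 0.109; DESeq2 0.0103), with ZnO libraries below all controls also at p3h2_1. p3h3 differed by 0.04 and p3h4 by 0.21 on the log2 scale, and p3h3_1 by -0.28 with all ZnO libraries below all controls (14.5, 19.5 and 19.2 CPM in ZnO libraries, 23.9, 19.7 and 21.1 CPM in controls); none of these passed. hspa5, the main chaperone of the endoplasmic reticulum, stood at 549, 381 and 463 CPM in ZnO libraries and 575, 711 and 753 CPM in controls (-0.55 ± 0.17, adjusted p = 0.182). Of 24 entries for collagen export and its transcription factors, 0 passed by edgeR or DESeq2, and the median was -0.14. At an unadjusted edgeR p under 0.05, 2 were lower and 0 higher, beside the same 15.9% of all entries.

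The collagen chains on which these enzymes act showed no common direction. Of 32 tested entries 0 passed by edgeR, and 2 were higher and 1 lower at an unadjusted p under 0.05, beside 15.9% of all entries in either direction. DESeq2 called 1 higher (col5a3b) and 1 lower (col12a1a), beside 1.65% and 3.02% of all entries, and the median was -0.03. The type I collagen genes col1a1a, col1a1b and col1a2, with all entries summed, reached 33500, 33486 and 21671 CPM in ZnO libraries and 40490, 24694 and 38220 CPM in controls. ZnO 3 and control 2 were the low libraries. Control 2 was also the lowest control at both p4ha1b entries, whereas ZnO 1 was their lowest ZnO library. Log2 fold changes were -0.10 ± 0.28 for col1a1a, -0.09 ± 0.28 for col1a1a_1, -0.40 ± 0.21 for col1a1b and -0.32 ± 0.20 for col1a2 (edgeR adjusted p = 0.903, 0.913, 0.407 and 0.484).

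Procollagen processing and cross-linking genes lay higher on average, without a call. Of 22 tested entries 0 passed by edgeR, 8 were higher and 2 lower at an unadjusted p under 0.05, beside 15.9% of all entries in either direction, and DESeq2 called 2 higher and 0 lower, beside 1.65% and 3.02% of all entries; the median was 0.26. lox, the cross-linking lysyl oxidase, stood at 187, 236 and 231 CPM in ZnO libraries and 156, 74.1 and 157 CPM in controls (0.76 ± 0.28, edgeR adjusted p = 0.252). pcolceb, a procollagen C-proteinase enhancer, stood at 60.6, 76.2 and 84.0 CPM in ZnO libraries and 35.5, 40.9 and 51.7 CPM in controls (0.79 ± 0.17, adjusted p = 0.0934; DESeq2 0.00489). At both genes every ZnO library was above every control. The 2 lower entries were loxl2b, a lysyl oxidase-like gene, and pcolce2b, a further C-proteinase enhancer gene. loxl2b stood at 193, 190.2 and 159 CPM in ZnO libraries and 292, 194 and 244 CPM in controls, all ZnO libraries below all controls (-0.43 ± 0.17, edgeR adjusted p = 0.263). pcolce2b stood at 36.1, 39.8 and 37.3 CPM in ZnO libraries and 66.4, 39.1 and 53.2 CPM in controls, with overlap (-0.49 ± 0.18, adjusted p = 0.248).

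In the list of oxygen-sensing genes and hypoxia-inducible targets, 1 of 37 tested entries rose and 1 fell by edgeR (5.41% called in either direction, beside 0.428% of all entries). Its prolyl hydroxylases use the same cofactors as the collagen enzymes, while pfkfb3, igfbp1a, hk2, bnip3 and lox stand in it as hypoxia-inducible targets. DESeq2 called 2 higher and 3 lower (beside 1.65% and 3.02% of all entries), and the median was 0.09. At an unadjusted edgeR p under 0.05 there were 7 higher and 4 lower, beside 15.9% of all entries in either direction. The higher entries were egln2, epas1a, lox, egln3, bnip3, hif1an and vhl. On the log2 scale egln3 differed by 1.1996, bnip3 by 0.848, hif1an by 0.614 and vhl by 0.594, and none of these passed the edgeR threshold. All ZnO libraries were above all controls at egln3, bnip3, vhl and lox, while the groups overlapped at hif1an. The mammalian counterpart shared by p4ha1a and p4ha1b, and those of p4ha2 and plod2, are known targets of hypoxia-inducible factors. At their first entries these zebrafish genes differed by 0.10 (p4ha1a), 1.52 (p4ha1b), 0.54 (p4ha2) and -0.41 (plod2) on the log2 scale. Further targets in the list differed little, with overlap between groups: vegfaa by -0.02, ldha by 0.06, pgk1 by 0.10, slc2a1b by -0.0002 and ndrg1a by -0.08. A relation of p4ha1b to hypoxia signalling was not tested. egln2, an oxygen-sensing prolyl hydroxylase, rose to 7.52, 13.1 and 14.3 CPM in ZnO libraries, against 3.05, 3.52 and 4.17 CPM in controls (log2 fold change 1.70 ± 0.26, edgeR adjusted p = 0.0467). pfkfb3, a regulator of glycolysis, fell to 10.1, 9.27 and 8.66 CPM in ZnO libraries, against 17.5, 17.2 and 16.9 CPM in controls (-0.89 ± 0.12, adjusted p = 0.0368). epas1a, a hypoxia-inducible factor alpha subunit gene, stood at 6.34, 11.3 and 8.32 CPM in ZnO libraries and 3.91, 3.17 and 3.64 CPM in controls (1.27 ± 0.23, adjusted p = 0.0662; DESeq2 2.24e-04). igfbp1a, which encodes an insulin-like growth factor binding protein, went the other way with the largest log2 fold change in size among the tested entries of this list, at 29.6, 19.0 and 24.8 CPM in ZnO libraries and 108, 89.6 and 48.5 CPM in controls (-1.74 ± 0.31, edgeR adjusted p = 0.0692; DESeq2 2.996e-07). The hexokinase gene hk2 also had all ZnO libraries below all controls, at -0.38 ± 0.14 for its first entry and -0.65 ± 0.17 for hk2_1 (edgeR adjusted p = 0.244 and 0.138; DESeq2 0.224 and 0.03095). Without any 1 library other than ZnO 1, the edgeR adjusted p was 0.0992 to 0.158 for egln2 and 0.0814 to 0.154 for pfkfb3, and with the replicate block it was 0.0602 and 0.0837. In all, the egln2 call was lost in 8 of the 15 alternatives and the pfkfb3 call in 6.

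Of the genes for ascorbate and iron supply, 1 of 18 tested entries rose by edgeR (5.56% called, beside 0.428% of all entries), with a median of 0.13. DESeq2 called 2 higher and 2 lower, beside 1.65% and 3.02% of all entries. The riser was slc40a1, which encodes the iron exporter ferroportin, at 35.98, 43.9 and 37.1 CPM in ZnO libraries and 20.9, 22.2 and 19.7 CPM in controls (0.90 ± 0.12, edgeR adjusted p = 0.0368). It missed the threshold without any 1 library other than ZnO 1 (0.0669 to 0.123) and with the replicate block (0.0697). slc23a2, an ascorbate transporter, stood at 21.3, 13.2 and 30.1 CPM in ZnO libraries and 9.79, 9.37 and 10.4 CPM in controls (1.13 ± 0.27, adjusted p = 0.114; DESeq2 0.00288), and its second entry had a log2 fold change of 0.80 ± 0.30 (adjusted p = 0.255). At both entries all ZnO libraries were above all controls. ZnO 2, highest for p4ha1b, was the lowest ZnO library at both, and a relation to p4ha1b was not tested. At slc2a3b and tfr1b all ZnO libraries were below all controls. slc2a3b, related to a transporter of glucose and oxidised ascorbate, stood at 6.31, 6.86 and 5.18 CPM in ZnO libraries and 10.97, 14.2 and 9.23 CPM in controls (-0.91 ± 0.20, edgeR adjusted p = 0.0913; DESeq2 0.00438). tfr1b, a transferrin receptor gene, stood at 33.1, 20.1 and 29.8 CPM in ZnO libraries and 56.5, 40.1 and 40.0 CPM in controls (-0.72 ± 0.21, adjusted p = 0.174; DESeq2 0.0424), while its second entry overlapped between groups (-0.33 ± 0.16, adjusted p = 0.379).

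**Figure D5:**
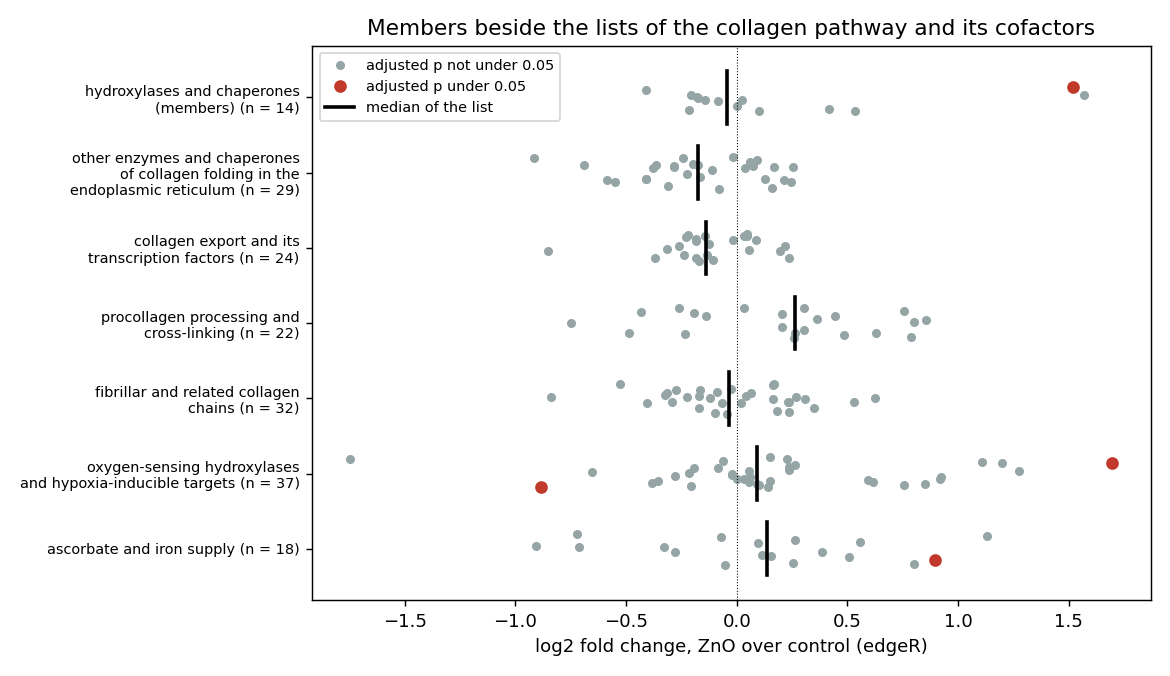
Log2 fold change, ZnO over control (horizontal axis), of each tested entry of the members and of 6 pathway lists (rows, with the number of entries), with red points for an edgeR adjusted p under 0.05 and black bars for list medians. Red points are p4ha1b, egln2, pfkfb3 and slc40a1, and the list medians run from -0.17 to 0.26.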

How the data were processed

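Per the labels' protocols, libraries from poly(A) RNA were read as Illumina read pairs. The authors deposited whole-number counts per gene entry, with no scaling. The submitters' processing notes name GRCz11 as build and cutadapt, BWA, HTSeq and DESeq2 as tools, without roles. Versions, settings, annotation, strand and the handling of reads that fit several places are not given there, so entries that share a symbol are uncertain.

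Entries were kept with filterByExpr (minimum count 10), scaled by TMM and compared by the edgeR quasi-likelihood test with robust dispersions and the group as only term, over 25962 entries, with Benjamini-Hochberg adjustment. SE is the log2 fold change divided by the square root of F. Scripts were tested on simulated data. Profiles used log2 CPM with a prior count of 2. Levels of different genes per length, and shares per coding length, were planned but lengths and sequences were not used here. Names were matched by symbol, and 10 of 10 members matched the RefSeq table (GRCz12tu). No duplicate library was found.

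Members and lists were chosen with earlier results of these data known. Named were all members, up to 4 list entries past the threshold, col1a1a, col1a1b, col1a2, crtap, ppib, egln2, and the 5 profiles nearest to p4ha1b. p3h2, p3h3, p3h4, p4ha3, slc23a2, epas1a, lox, pcolceb, hspa5, col12a1a, col5a3b, loxl2b, pcolce2b, igfbp1a, hk2, egln3, hif1an, bnip3, vhl, slc2a3b and tfr1b were chosen after their values were seen. So were vegfaa, ldha, pgk1, slc2a1b and ndrg1a, and the cell type markers csf3r, ncf4, mmp25b, coro1a, cd74a, cd74b, spi1b, runx2a, bglap, spp1, entpd5a, alpl, plvapb, krt5 and krt91. Alternatives were DESeq2, limma-voom, other scalings and filters, the replicate block, summed entries and each library left out. Fits ran in DESeq2 1.42.0, edgeR 4.0.16 and limma 3.58.1 under R 4.3.3, and tables and plots in Python 3.11.15 with numpy 2.4.6, pandas 2.3.3 and matplotlib 3.10.9.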

Additional observations from a re-analysis of the deposited data

How the results depend on the processing

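Over all entries, 25 were higher and 86 lower in ZnO. DESeq2 gave 422 and 772, no filter 122 and 283, and the replicate block 3 and 29, while limma-voom gave 15 higher and the stricter filter (CPM of at least 1 in 3 libraries) 14 higher. Leaving out 1 library gave 0 to 87 higher and 12 to 282 lower, with the highest counts without ZnO 1 and the lowest without ZnO 3 (also 0 higher without control 3). Of the member entries 1 was called higher in the fit as reported, 2 with DESeq2, 0 with limma-voom, DESeq2 size factors, upper quartile scaling, the stricter filter, summed entries and the replicate block, and 0 to 2 without 1 library. The cause was not tested. Libraries with the same replicate number did not deviate together (correlations 0.0143, -0.0490 and 0.0778), so the replicate block rests on shared numbers only. The p4ha1b share difference of 16.9 percentage points ran from 13.2 to 19.9 without 1 library, an alternative chosen after seeing the data, and its version per coding length was not run. Directions turned only at small fold changes: p4ha1a_1 was at -0.00653 with DESeq2, -0.00629 with its size factors and -0.0037 with no filter, p4hb at -0.0710 and p3h3 at -0.0900 with entries summed. Without 1 library, log2 fold changes ran from -0.0559 to 0.257 for p4ha1a, -0.225 to 0.211 for p4ha1a_1, -0.0412 to 0.105 for p4hb, -0.472 to 0.0928 for p4hb_1, -0.187 to 0.0331 for plod3_1, -0.342 to 0.0915 for col1a1a, -0.325 to 0.108 for col1a1a_1, -0.199 to 0.0542 for crtap, -0.0943 to 0.129 for p3h3 and -0.0948 to 0.0315 for ppib.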
